A study of Mus musculus with 4 samples.

Results

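Foxo1 and Foxo3 encode forkhead transcription factors, and the chromatin loops called at these 2 of 21631 protein-coding mouse genes were examined in granulosa cells by Micro-C, a chromosome conformation assay that cuts chromatin with micrococcal nuclease. A loop belonged to a gene if an anchor lay within 10 kb of the gene body, or if the loop enclosed the gene and its anchors were under 1 Mb apart. This gave 34 of the 30437 calls in 4 deposited loop lists, 20 at Foxo1 and 14 at Foxo3. The hCG group (2 libraries) came from 21-day-old mice injected with eCG, the equine chorionic gonadotropin known as PMSG (5 IU), and then with 5 IU of human chorionic gonadotropin (hCG), which acts on the receptor for luteinizing hormone (LH), with collection 6 h after hCG. The PMSG group (2 libraries) received the same eCG and was collected at 0 h of hCG. The time under eCG is 46 h in the sample characteristics and 44 h in the treatment protocol. Cells were released by puncturing ovaries, the mouse strain is not given in the sources used here, and no label ties a library to particular mice, so p-values measure only the spread between these libraries, which may be technical.

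FOXO proteins bind DNA in the nucleus and are pushed into the cytoplasm when AKT, a kinase downstream of phosphoinositide 3-kinase (PI3K), phosphorylates them. In mouse granulosa cells FOXO1 is abundant in growing follicles, where follicle-stimulating hormone signals through AKT to restrain it, and its level is known to fall as the cells luteinize. FOXO3 is best known in the mouse ovary for holding primordial follicles dormant from within the oocyte. The lists hold contacts and no RNA, so neither the genes' expression nor the purity of the cells could be read from them. In such bulk libraries a loop in fewer cells and a weaker loop in every cell cannot be told apart.

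The hCG lists held 7664 and 7935 loops and the PMSG lists 8305 and 6533. At 1295 loops called once per list and in 1 bin size throughout, the local expectation was 0.573 and 0.725 times that of PMSG replicate 1 in hCG replicates 1 and 2, and 0.585 times in PMSG replicate 2, so PMSG replicate 1 was the deepest library. Single loops rest on 14 to 139 contacts, and the 95% Poisson intervals below cover counting error only. A gene or loop missing from a list had no pixel past the caller's thresholds there, and the contacts at that pixel were not analysed here.

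The 250 bases before each annotated 5′ end are shown because nearly all calls had an anchor within 20 kb of that end. The bases themselves need not lie in an anchor. The sequences are from RefSeq on GRCm38.p6, the assembly of mm10, written 5′ to 3′ along the gene, and capitals mark the letters of a CCAAT box or a GC box (GGGCGG) on either strand. Foxo1 lies on the plus strand of chromosome 3 (52268337 to 52350109) and Foxo3 on the minus strand of chromosome 10 (42181845 to 42276695).
Foxo1 (chr3:52268087-52268336): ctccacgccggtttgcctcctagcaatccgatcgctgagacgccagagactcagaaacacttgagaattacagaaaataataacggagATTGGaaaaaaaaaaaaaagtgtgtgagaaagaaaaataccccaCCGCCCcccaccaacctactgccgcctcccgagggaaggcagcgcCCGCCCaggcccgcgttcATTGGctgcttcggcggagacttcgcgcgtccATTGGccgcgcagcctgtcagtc
Foxo3 (chr10:42276696-42276945): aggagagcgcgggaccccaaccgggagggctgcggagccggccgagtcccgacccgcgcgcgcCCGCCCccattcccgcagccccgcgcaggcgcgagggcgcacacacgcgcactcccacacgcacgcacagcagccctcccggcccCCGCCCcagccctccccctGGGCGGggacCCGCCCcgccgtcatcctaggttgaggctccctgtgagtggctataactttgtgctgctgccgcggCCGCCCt

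The promoters differed in composition. Foxo3 had 76.4% G and C and 31 CpG pairs, Foxo1 had 56% and 20, and the medians over 32851 mouse promoter windows of the same length were 52.4% and 6. Foxo1 held 3 CCAAT boxes and 2 GC boxes, and Foxo3 held 5 GC boxes and no CCAAT box. At least 1 CCAAT box was in 33.8% and at least 1 GC box in 32.7% of all these windows. Searched on both strands, the FOXO element GTAAACA (3.17% of windows), the cAMP response element TGACGTCA (1.55%), the NR5A site AAGGTCA (4.08%), the GATA site AGATAA (9.99%), the E box CACGTG (6.02%) and a CTCF core motif (2.93%) had no match in either window. The short cAMP motif TGACG, which the full element contains, matched once in Foxo3 and is in 17.8% of windows.

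By calls summed over the 4 lists, Foxo1 was one of the most looped genes in these cells. It anchored 5 and 6 loops in the hCG lists and 6 and 3 in the PMSG lists, or 20 calls in all, while the median over 12367 genes with at least 1 anchored loop was 4. Only 62 of these genes (0.501%) had 20 or more. Among 3929 such genes of 50 kb or longer, where Foxo1 with its 81773 bases belongs, the share was 1.25%. Foxo3, of 94851 bases, anchored 2 and 1 loops in the hCG lists and 2 and 1 in the PMSG lists, and 31.1% of looped genes had as many calls or more. A further 8 calls enclosed Foxo3, 3 and 2 in the hCG lists and 2 and 1 in the PMSG lists, whereas Foxo1 had no enclosing loop under 1 Mb.

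**Figure D1:**
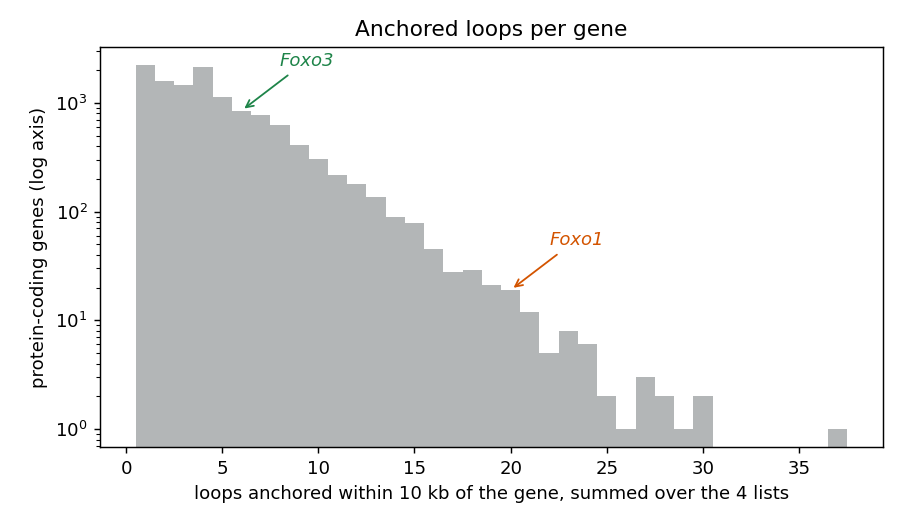
Number of protein-coding genes (log axis) by the loops anchored within 10 kb of the gene, summed over the 4 lists, for 12367 genes with at least 1 such loop. Foxo1 lies far in the tail with 20 calls, and Foxo3 with 6 calls lies near the bulk of genes.

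The number of anchored loops did not separate the groups. For Foxo1 it averaged 5.5 ± 0.707 in hCG and 4.5 ± 2.12 in PMSG (SD, n = 2 each), and the hCG libraries lay within the range of the PMSG libraries. For Foxo3 it averaged 1.5 ± 0.707 in each group. The exact permutation test over libraries (two-sided) gave p = 1 for both genes, and with 2 libraries against 2 it cannot go below 0.333. PMSG replicate 2, which had the fewest Foxo1 loops, also had the shortest list, and without it the Foxo1 difference turned from 1 to -0.5 loops.

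The loops counted at both genes mostly ran the same way, from the 5′ side of the gene over its body and out past its 3′ end. At Foxo1, 19 of 20 calls had an anchor within 20 kb of the 5′ end, and 16 of these reached beyond the 3′ end. At Foxo3 the numbers were 13 of 14 calls and 11, but 7 of these 11 were taken in because they enclosed the gene, so their course over it was set by the rule. A loop running upstream from the bins of those 7 calls would not have been counted. One running upstream from an anchor within 10 kb of either gene would have been. Counted as distinct loops (calls of different lists joined when both anchor midpoints lay within 20 kb), 9 of 9 loops anchored within 10 kb of the Foxo1 5′ end and 5 of 5 at Foxo3 lay on the downstream side. This depended on the window, because within 25 kb Foxo1 also had an upstream loop of 540 kb, given under other observations. Some loops lay close together, and matching within 50 kb left Foxo1 with 7 distinct loops instead of 10. Over all genes with a known strand 51.2% of 11707 such loops lay downstream, and over genes of 50 kb or longer 62.3% of 2868. Of 411 genes with 4 or more distinct loops at the 5′ end, 75 (18.2%) had all of them downstream.

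The annotated 5′ end itself was inside the anchor in 12 of 20 calls at Foxo1 and in 6 of 14 at Foxo3. Calls in 5 kb bins placed the anchor upstream of the printed promoters. At Foxo1 the 5 kb bins of the 740 to 750 kb loop ended 8.34 and 3.34 kb upstream of the 5′ end in hCG replicates 1 and 2 and 3.34 kb upstream in PMSG replicate 1. At Foxo3 all calls that enclosed the gene and shared the 5′ side anchor lay 13.3 or 18.3 kb upstream, in bins of 5 or 10 kb, and the same site was taken as an anchor at the gene only where the list used a 25 kb bin. Whether a call from this site counted as anchored or enclosing therefore followed its bin size.

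**Figure D2:**
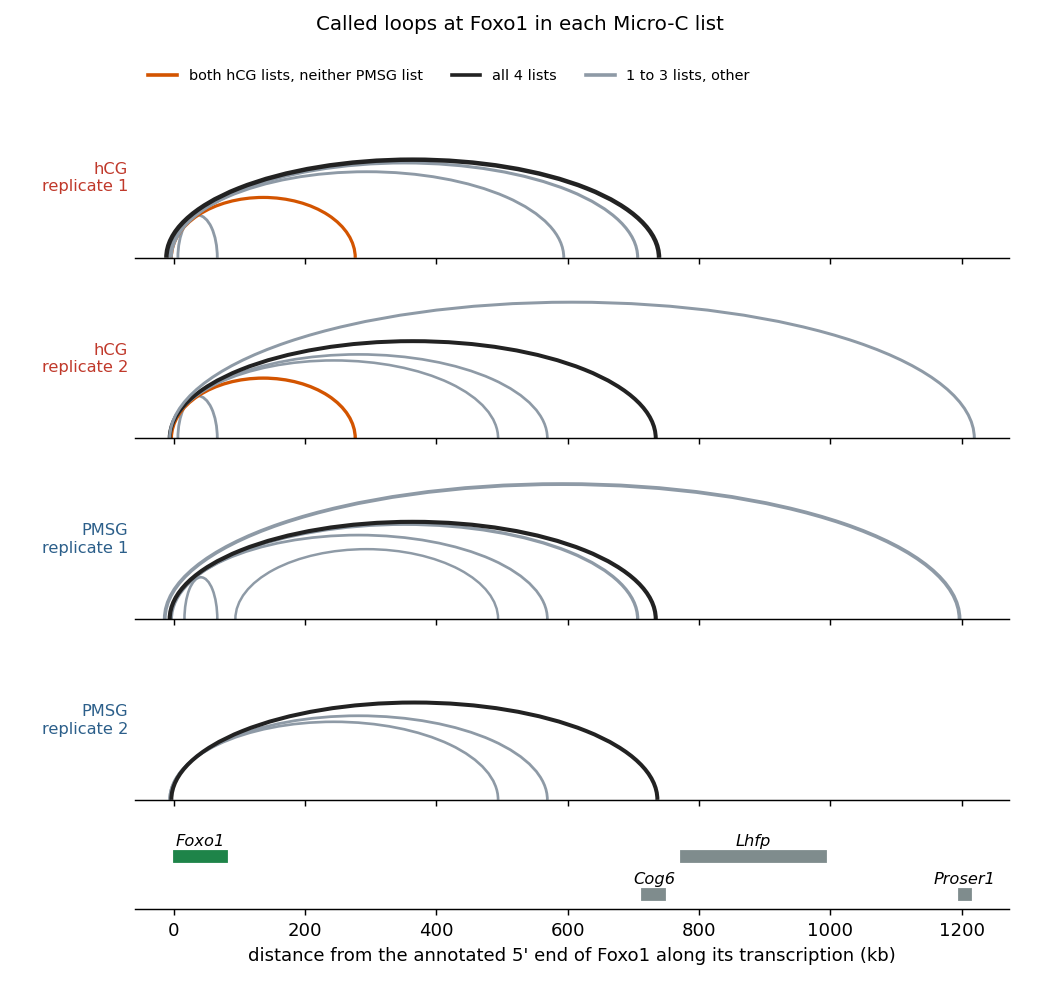
Arcs join the anchor midpoints of each call at Foxo1 in the 2 hCG lists (above) and the 2 PMSG lists, against the distance in kb from the 5′ end along transcription; thicker arcs have a higher observed over expected ratio and bars below are gene bodies. The 280 kb loop (orange) is in both hCG lists and in neither PMSG list, and the 740 to 750 kb loop to Cog6 (black) is in all 4.

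Foxo1 had 10 distinct loops, and 1 of them was in both hCG lists and in neither PMSG list. Over the whole lists, 653 of 12942 distinct loops were of that kind, and 491 were of the reverse kind. The loop of 280 kb joined the promoter anchor (52260001 to 52270000) with 52540001 to 52550000, at an end of the long noncoding RNA gene Gm30173. It had 20 and 29 contacts against 4.55 and 6.00 expected from the surrounding ring of pixels (the donut) in hCG replicates 1 and 2, ratios of 4.40 (95% interval 2.69 to 6.79) and 4.83 (3.24 to 6.94). Neither PMSG list held it, and the contacts at that pixel in the PMSG libraries were not analysed. The ratio was above that of 62.1% and 77.9% of the 10 kb calls of the same 2 lists. No other loop was anchored within 10 kb of its far anchor in any list.

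Of the 12367 looped genes, 9.47% had an anchored loop called in each hCG library and absent from both PMSG lists (called gained below), and 6.70% had the reverse (called lost). Foxo1 and Foxo3 each had 1 gained and no lost loop. The share among looped genes of 50 kb or longer was 12.1% for gained loops. These shares are per gene and were not matched for the number of loops, of which Foxo1 had more than most genes. Both gained loops kept their class in each of 7 alternatives of matching, list stringency and anchor distance.

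One Foxo1 loop was shared by all lists. It ran 740 to 750 kb to the body of Cog6, which encodes a subunit of a Golgi tethering complex. It had 18 and 18 contacts against 2.12 and 2.62 expected in hCG replicates 1 and 2, and 26 and 30 against 3.54 and 4.30 in PMSG replicates 1 and 2. The ratios of 8.47 and 6.87 in hCG and 7.35 and 6.98 in PMSG overlapped (7.67 ± 1.13 and 7.17 ± 0.266, SD, n = 2 each). Within list and bin size they were above those of 69.2% and 54.3% of calls in hCG and of 79.2% and 92.1% in PMSG. A neighbouring loop of 710 kb to an end of Cog6 was called in 1 list of each group, with 31 contacts against 7.64 expected in hCG replicate 1 and 53 against 11.1 in PMSG replicate 1.

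Between the promoter and Cog6 lay broader contacts in 25 kb bins. A loop of 575 kb had 105 contacts against 37.8 expected in hCG replicate 2, and 139 against 47.9 and 67 against 21.9 in PMSG replicates 1 and 2. hCG replicate 1 placed its call 1 bin further out, at 600 kb, with 107 contacts against 31.4, so with matching within 50 kb all 4 lists shared this loop. The ratios were 3.40 and 2.78 in hCG and 2.90 and 3.06 in PMSG, and the groups overlapped. A loop of 500 kb to the noncoding gene Gm2447 was in hCG replicate 2 (97 contacts against 39.0) and PMSG replicate 2 (64 against 23.3), while PMSG replicate 1 reached the same anchor from the 3′ end of Foxo1 (136 against 65.1).

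The remaining Foxo1 loops were the shortest and the longest. A loop inside the gene joined sites 60 kb apart in the hCG lists, with 47 and 55 contacts against 14.5 and 17.3 expected, and sites 50 kb apart in PMSG replicate 1, with 65 against 26.2. The ratios were 3.25 and 3.19 in hCG and 2.48 in PMSG replicate 1. Within list and bin size they were above those of 28.8% and 33.2% of calls in hCG and of 17.5% in PMSG replicate 1. Their intervals overlapped (2.39 to 4.32, 2.40 to 4.15 and 1.91 to 3.16), and PMSG replicate 2 had no call. The longest calls, of 1225 kb in hCG replicate 2 (32 contacts against 8.52) and 1210 kb in PMSG replicate 1 (18 against 2.86), were above 91.3% and 93.0% of calls of their list and bin size, and both met an end of Proser1, a gene named after its values were seen.

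**Figure D3:**
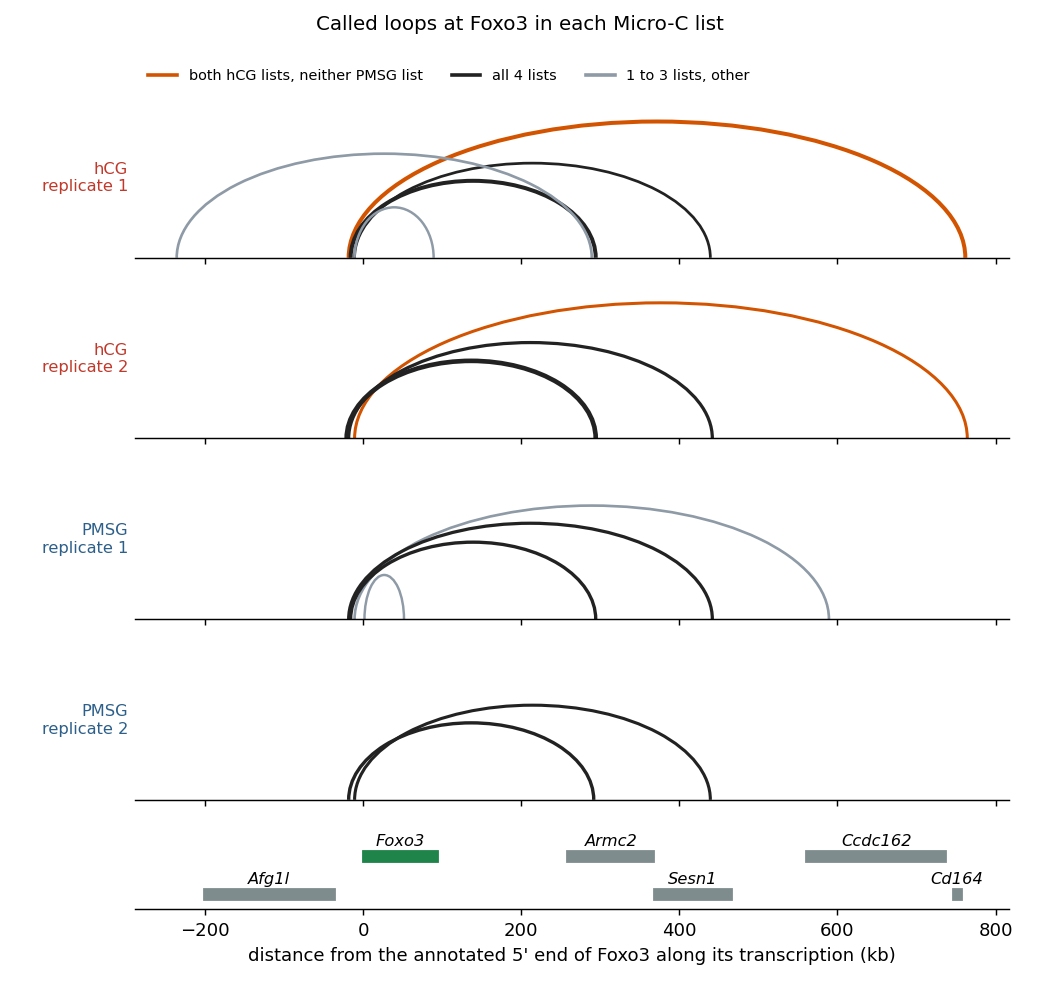
Arcs join the anchor midpoints of each call at Foxo3 in the 2 hCG lists (above) and the 2 PMSG lists, against the distance in kb from the 5′ end along transcription; thicker arcs have a higher observed over expected ratio and bars below are gene bodies. The 775 to 780 kb loop towards Cd164 (orange) is in both hCG lists and in neither PMSG list, and the loops into Armc2 and Sesn1 (black) are in all 4.

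Foxo3 had 7 distinct loops, of which 2 were in all lists and 1 was gained. The gained loop spanned 775 to 780 kb and met the ends of Cd164, which encodes a sialomucin, and Ppil6. hCG replicate 1 had 14 contacts against 2.00 expected (10 kb bins) and hCG replicate 2 had 38 against 9.77 (25 kb bins), ratios of 6.99 (95% interval 3.82 to 11.7) and 3.89 (2.75 to 5.34). These ratios were above those of 91.5% and 93.1% of calls of the same bin size in their lists. In hCG replicate 1 the anchor lay 13.3 kb upstream of Foxo3, so this loop counts as enclosing there and as anchored in hCG replicate 2.

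The far anchor of the gained Foxo3 loop took part in other loops in both groups. A loop of 70 kb ended in its 25 kb bin in hCG replicate 1 (29 contacts against 7.73 expected) and PMSG replicate 1 (34 against 11.5). One of 50 kb ended there in hCG replicate 2 (38 against 14.2). From the Cd164 site a loop of 165 to 170 kb ran to 41680001 to 41685000 in all lists, with 19 and 21 contacts against 1.96 and 2.53 expected in hCG replicates 1 and 2 and 29 and 22 against 4.59 and 2.10 in PMSG replicates 1 and 2. In PMSG replicate 1 alone, Foxo3 met that intermediate site, in the body of Ccdc162, through a loop of 600 kb with 52 contacts against 19.3.

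Sesn1 encodes a stress-induced sestrin that restrains mTORC1. A loop of 450 to 460 kb ran in all lists from the 5′ side of Foxo3 into the Sesn1 body. Its anchor reached Foxo3 in the 25 kb bins of hCG replicate 1 and PMSG replicate 2. In the 10 kb bins of hCG replicate 2 and PMSG replicate 1 it lay 13.3 kb upstream of the gene. The loop had 45 contacts against 15.3 expected and 21 against 4.65 in hCG replicates 1 and 2, and 33 against 7.30 and 48 against 11.8 in PMSG replicates 1 and 2. The ratios overlapped, at 2.93 and 4.52 in hCG and 4.52 and 4.07 in PMSG.

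The loop of 310 to 315 kb from the Foxo3 upstream site to the body of Armc2 was also called in all 4 lists. It had 17 and 26 contacts against 2.43 and 2.82 expected in hCG replicates 1 and 2, and 22 and 37 against 4.53 and 7.47 in PMSG replicates 1 and 2. The ratios were 6.99 and 9.23 in hCG and 4.85 and 4.96 in PMSG (8.11 ± 1.59 and 4.91 ± 0.0723, SD, n = 2 each). How many of all loops called in 4 lists had ratios separated by group in this way was not counted. Set against calls of the same list and bin size, the groups did overlap: the ratio was above that of 46.3% and 83.9% of calls in hCG replicates 1 and 2 and of 36.5% and 67.1% in PMSG replicates 1 and 2. The median ratio in 5 kb bins was 7.23 and 6.64 in hCG replicates 1 and 2 and 5.48 in PMSG replicate 1. PMSG replicate 2 called the loop in a 10 kb bin, where its list's median was 4.32 (7.56 in 5 kb bins). The part of bin size in this difference was tested only through the scaled fit and the fit without that library, given with the other tests of strength. The single calls were a 50 kb loop inside Foxo3 in PMSG replicate 1 (58 contacts against 28.2), a 100 kb loop along the gene in hCG replicate 1 (95 against 44.2) and a 525 kb loop from Armc2 to Snx3 over Foxo3 in hCG replicate 1 (44 against 15.8).

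**Figure D4:**
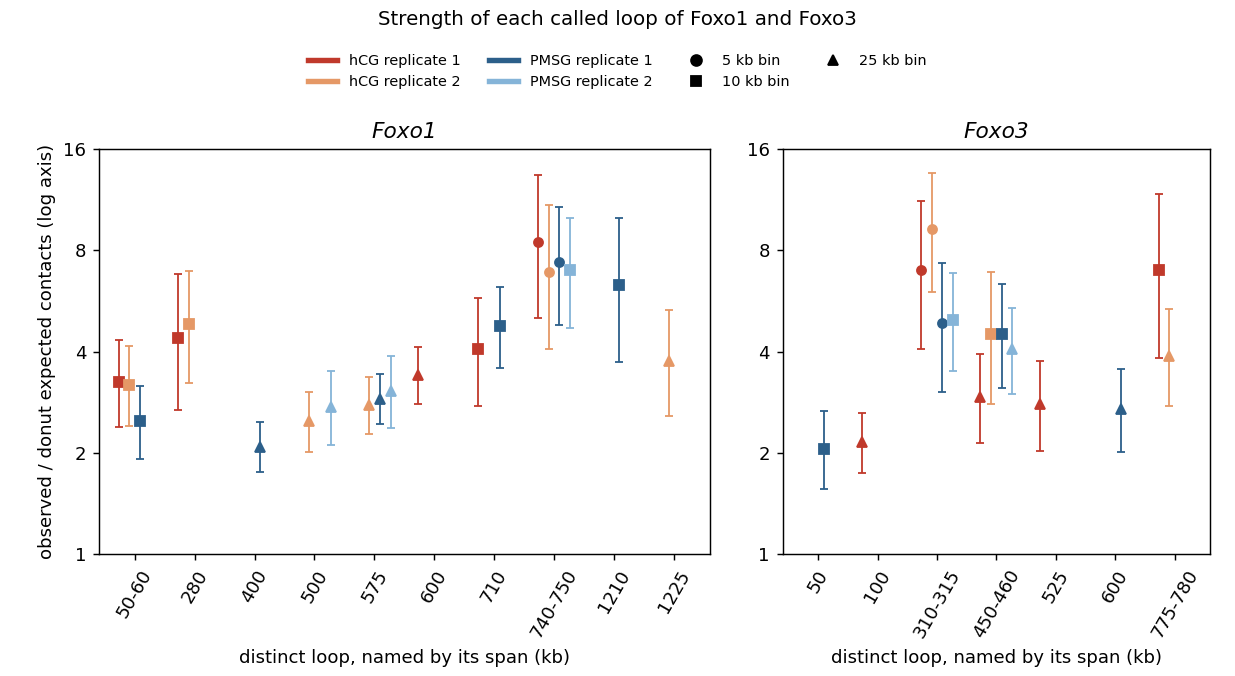
Ratio of observed to donut-expected contacts (log axis) with 95% Poisson intervals for each call at Foxo1 and Foxo3, ordered by span; colour gives the library (hCG left of PMSG within a loop) and the marker the bin size. The intervals of hCG and PMSG calls overlap at every loop both groups share.

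Loop strength was then tested over all shared loops with edgeR (quasi-likelihood), using the donut expectation as offset. Only loops called in every list of a fit entered, so loops missed by the caller in any of them were not tested. Each library gave the values of its own called pixel, which the caller had picked on those same values. Of 1366 loops called in 1 bin size in all 4 lists, 0 passed an adjusted p of 0.05 (0%), 90 had an unadjusted p under 0.05, and DESeq2 also called 0. No loop of Foxo1 or Foxo3 was among them, because their shared loops were called in different bin sizes. Over the 3859 loops shared in any bin size, edgeR again called 0 (0%), with 357 at an unadjusted p under 0.05, DESeq2 called 0, and the median log2 ratio of hCG over PMSG was 0.11. In that fit the Cog6 loop of Foxo1 had a log2 ratio of 0.09 ± 0.31 (SE, edgeR adjusted p = 0.966). The Sesn1 loop of Foxo3 had -0.28 ± 0.36 (edgeR adjusted p = 0.862) and the Armc2 loop 0.73 ± 0.31 (edgeR adjusted p = 0.497). Without PMSG replicate 2 the Armc2 loop was in 5 kb bins throughout and had 0.75 ± 0.29 (edgeR adjusted p = 0.399), where the median loop had 0.25. With the expectation scaled to each list's median ratio at its bin size, an alternative added after the data had been seen, the Armc2 loop had 0.20 (edgeR adjusted p = 0.995) and the Cog6 loop -0.42 (edgeR adjusted p = 0.958). The loop inside Foxo1 could be tested only in the fit without PMSG replicate 2 and had 0.38 ± 0.18 (edgeR adjusted p = 0.534).

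The other genes of the FOXO pathway were counted by the same 10 kb rule, with lists drawn up when earlier results of these data were known. The other FOXO genes, Foxo4 and Foxo6, had no anchored loop in any list. Of 14 genes upstream of FOXO, 13 had a loop, 2 of them (15.4%, against 9.47% of all looped genes) a gained one. The gained loops were at Irs2, an insulin receptor substrate, and Pik3r1, the regulatory subunit of PI3K, where hCG replicates 1 and 2 each had 24 contacts at 35 kb, against 4.15 and 5.28 expected. Lost loops were found at Akt2, an AKT kinase, with 25 and 17 contacts against 7.24 and 2.62 in PMSG replicates 1 and 2, and at Irs1, another insulin receptor substrate, with 26 and 81 against 8.02 and 28.4.

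Of 16 regulators that modify or bind FOXO proteins, 13 had a loop, with 2 gained (15.4%) and 2 lost (15.4%, against 6.70% of all looped genes). The acetyltransferase gene Ep300 had a gained loop of 60 kb and the kinase gene Stk4 a lost one of 40 to 50 kb. The acetyltransferase gene Kat2b had both kinds, and its gained loop, at 53650001, started 1 bin of 25 kb from the lost one at 53675001. Of 36 targets, 29 had a loop, with 6 gained (20.7%) and 4 lost (13.8%). The gained ones were Bcl6, a transcriptional repressor, Cited2, Hmgcs1 of cholesterol synthesis, Irs2, Pdk4 and Trib1. The lost ones were Bbc3 and Fasl, which promote cell death, Igfbp1 and Klf4. The Bcl6 loop spanned 1280 to 1290 kb with 16 and 25 contacts against 2.85 and 3.72 expected in hCG replicates 1 and 2, and the Bbc3 loop 70 to 75 kb with 24 and 30 against 4.82 and 7.51 in PMSG replicates 1 and 2. The lists are short and share Irs2, and no test was made of these counts.

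By the number of anchored loops in each of the 4 libraries, 1 gene, Gpa33, matched Foxo1 exactly, with a sum of absolute differences of 0. Gpa33 had a lost and no gained loop. For Foxo3, 119 genes matched exactly, of which Tet3, Dgkd and Sufu were nearest to it in length.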

How the data were processed

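The 4 loop lists, 1 per library, hold loops in bins of 5, 10 or 25 kb, with technical replicates not separated. BWA, Juicer and build mm10 are named per the submitters' processing notes, and juicer_tools 1.22.01 per the file headers. Other settings: not given in the sources used here. Per the file headers, the lists give the observed contact count of each pixel, not normalized, the expected contact signal from 4 local neighbourhoods, and an FDR (q-value) for each, all below 0.1. The authors' deposited score for collapsed pixels was not used.

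The members, lists and alternatives were chosen with earlier results of these data known. Genes and promoters came from RefSeq tables of GRCm38.p6, with gene ends but no exons, so exon or intron could not be given. Partner genes were named if the far anchor of a loop in at least 2 libraries overlapped them or lay within 2.5 kb of an end, and Ccdc162, Proser1 and Snx3, of loops in single lists, were added after their values were seen. The rule gave up to 4 genes per list, and the further list and marker genes with gained or lost loops were also named after their values were seen. The test of strength as first designed needed 1 bin size in all lists and held no loop of either gene, so their values come from the alternative fit over loops of any bin size. Genes of like pattern were ranked by summed absolute differences, then by length. The SE is the log2 ratio over the root of edgeR's F. All samples had a file. Alternatives were other matching distances (10 and 50 kb, overlap), FDR 0.01, lists of equal length, anchor windows of 2.5 and 25 kb, other offsets, 5 and 10 kb bins only, loop numbers relative to list length, a mean count of 20 and leaving out each library. The fits were tested on simulated data. Tools were edgeR 4.0.16, DESeq2 1.42.0, R 4.3.3, Python 3.11.15, numpy 2.4.6, pandas 2.3.3, scipy 1.17.1 and matplotlib 3.10.9. The number of lost loops among the upstream genes is not reported here.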

Additional observations from a re-analysis of the deposited data

How the results depend on the processing

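Gained loops at the 2 genes numbered 2, and 2 or 3 under the other matching rules, list stringencies and anchor windows, and 2 to 5 when 1 library was left out (5 without hCG replicate 2, 3 without hCG replicate 1 or PMSG replicate 1). The loop inside Foxo1 was also gained when anchors had to overlap and with lists of equal length. Lost loops numbered 0, but 1 with all FDR values at or below 0.01, because the hCG calls of the Cog6 loop had FDR values of 0.0374 and 0.0336, and 0 to 4 when 1 library was left out (4 without PMSG replicate 2, 1 without hCG replicate 2). A class then rested on a single list. The Foxo1 difference in anchored loops ranged from -0.5 to 2.5 and the Foxo3 difference from -0.5 to 0.5 without single libraries. Loop strength gave 0 calls, but 3 with the bottom left expectation, 2 with any bin size and the expectation scaled to each list's median ratio at that bin size (chosen after the data had been seen), and 0 to 3 without single libraries (0 without PMSG replicate 1, 2 without PMSG replicate 2 or hCG replicate 1, 3 without hCG replicate 2); the cause was not tested. A lone library of a group was assumed to vary like the other group. With that scaling the log2 ratio of the Cog6 loop was -0.42 and that of the Armc2 loop 0.20, against 0.09 and 0.73. With the replicate block, loop strength also gave 0 calls. The labels tie same-numbered libraries only by a number, and whether they shared mice or preparation is not given. The correlation of their deviations was -0.01, which cannot settle this. Loops enclosing a gene numbered 4, and 2 with spans under 0.5 Mb. Loops of 14 to 30 contacts leave wide intervals.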

Other observations

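Outside the 10 kb window, a loop running upstream from Foxo1 was also in both hCG lists and in neither PMSG list. It spanned 540 kb, from 51700001 to 52240001, with 16 contacts against 1.83 expected in hCG replicate 1 and 29 against 7.39 in hCG replicate 2. With a window of 25 kb, Foxo1 had 6 and 9 loops in the hCG lists and 8 and 3 in the PMSG lists, and Foxo3 had 5 and 3 in the hCG lists and 4 and 3 in the PMSG lists.

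Marker genes of ovarian cell types were counted by the same rule, and a loop at a gene says nothing of its expression. Among all looped genes 9.47% had a gained and 6.70% a lost loop. All 11 granulosa markers had a loop, with Inhba and Nr5a2 at gained (18.2%) and Inhba and Inhbb at lost loops (18.2%). Of 8 theca and stroma markers 7 had a loop, with Nr2f2 and Pdgfra at gained (28.6%) and Acta2, Col1a1, Col1a2 and Pdgfra at lost loops (57.1%). Of 6 endothelial markers 3 had a loop, with Pecam1 at a gained (33.3%) and Cd34 at a lost loop (33.3%). Of 5 immune markers 3 had a loop, with Lyz2 at a lost one (33.3%) and 0 gained, and of 5 oocyte markers 3 had a loop, none of them gained or lost. These lists are short, and no test was made of their counts. The part of other cell types in the loops of Foxo1 and Foxo3 was not tested.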
